A study of Zea mays with 6 samples.

Results

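The genes described here encode the enzymes that carry carbon through C4 photosynthesis in the maize (Zea mays) leaf, together with the small subunits of Rubisco and Rubisco activase. They were chosen by identifier, 10 of the 44146 identifiers in the deposited tables, without the use of their measured values. The 10 are pep1 (phosphoenolpyruvate carboxylase, Zm00001d046170), pdk1 (pyruvate, phosphate dikinase, Zm00001d038163), me3 (NADP-malic enzyme, Zm00001d000316), mdh6 (NADP-malate dehydrogenase, Zm00001d031899) and pck1 (phosphoenolpyruvate carboxykinase, Zm00001d028471). The others are the carbonic anhydrases Zm00001d044096 and Zm00001d044099, the Rubisco small subunits Zm00001d052595 and Zm00001d004894, and Rubisco activase (Zm00001d048593). The tables give identifiers only, and 0 of the 10 matched the reference table used here. The names came with the list of genes. Their match to these identifiers was not checked here.

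RNA was measured in shoots of untreated seedlings at the 3-leaf stage, with the roots taken off. Of the 6 libraries, 3 came from the wild type and 3 from a knockout line (genotype GBetaKO, titles KO1) of Gβ, the β subunit of heterotrimeric G proteins, which relay signals at the cell surface. Only this knockout line appears in the titles. An effect of the missing subunit and any other peculiarity of the line cannot be told apart. The replicates are described as biological. The labels do not say how many plants a library holds, and the level of the targeted gene was not analysed here, so it gives no check of the labels.

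In C4 leaves the work is divided between 2 cell types. In mesophyll cells, carbonic anhydrase turns CO2 into bicarbonate, phosphoenolpyruvate carboxylase fixes it into oxaloacetate, and NADP-malate dehydrogenase reduces this to malate. In bundle sheath cells, NADP-malic enzyme (with phosphoenolpyruvate carboxykinase as a second decarboxylase, acting on oxaloacetate) releases CO2 beside Rubisco, whose active sites are kept working by Rubisco activase. Pyruvate returns to the mesophyll, where pyruvate, phosphate dikinase makes the acceptor again. In maize these genes are known as some of the most strongly expressed of the green leaf, and as genes that respond to light and leaf development. In RNA from whole shoots, fewer cells of a type and less RNA per cell cannot be told apart.

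The reads (or read pairs) assigned to the identifiers numbered 14756253 to 17663067 a library. They were worked back from the FPKM values (fragments per kilobase of gene length relative to a library total set by the authors). Reads assigned to no identifier are not seen here. In a principal component analysis of the 23232 tested genes, genotype lay along the first axis (69.4% of the variance). The second axis (20.1%) set apart wild-type replicate 3 (83.8) and knockout replicate 2 (37.8) from the other 4 libraries (-48.6 to -11.6). These 2 libraries decide much of what follows, so results are given with and without them. The labels name no batch.

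All 10 genes passed the filter on low values (at least 1 FPKM in at least 3 libraries). None of them passed the test between genotypes: 0 of 10 had an adjusted p below 0.05 (limma on log2(FPKM + 1), Benjamini-Hochberg over all tested genes), whereas 31.2% of all tested genes did (15.2% higher and 16% lower in the knockout), and 32.4% of those with a mean of at least 100 FPKM. At an unadjusted p below 0.05 the count was also 0 of 10 with limma, and 1 of 10 (mdh6) with voom on the worked-back reads, which likewise gave 0 calls after adjustment. The median log2 fold change of the 10 genes was -0.29, against 0.02 for all tested genes, with 8 of 10 values below 0. Both depend on single libraries and on the scaling. Without wild-type replicate 3 the median was 0.07 with 5 of 10 below 0, and without knockout replicate 2 it was -0.66 with 9 of 10 below 0. With values scaled to the summed FPKM the count was 5 of 10, at a median of -0.04 while the median of all tested genes moved to 0.24.

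What moved most were single libraries. In FPKM as deposited, each of the 10 genes had its highest value of all 6 in wild-type replicate 3 (7 genes) or in knockout replicate 2 (3 genes). Which of these 2 libraries is the higher depends on the scaling. The C4 cycle genes summed to 2908 FPKM in wild-type replicate 3 and 2413 FPKM in knockout replicate 2. As a share of all FPKM this was 0.339% and 0.371%. Knockout replicate 2 was the highest knockout library for 10 of 10 genes, while 43.5% of all tested genes were highest there. Wild-type replicate 3 was the highest wild-type library for 9 of 10, the exception being pck1, against 45.8% of all tested genes. Relative to the mean of the other libraries of its genotype, the median difference of the 10 genes was 1.22 (log2) in wild-type replicate 3 and 0.93 in knockout replicate 2. Over all tested genes these medians were 0.04 and 0.03. The summed FPKM of a library was also highest in wild-type replicate 3, at 857831 against 662881 and 597454 in wild-type replicates 1 and 2. In the knockout it was 650853 in replicate 2 against 531320 and 575462 in replicates 1 and 3. Medians over strongly expressed genes alone were not computed, so the rise is not read as particular to these 10 genes.

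**Figure D1:**
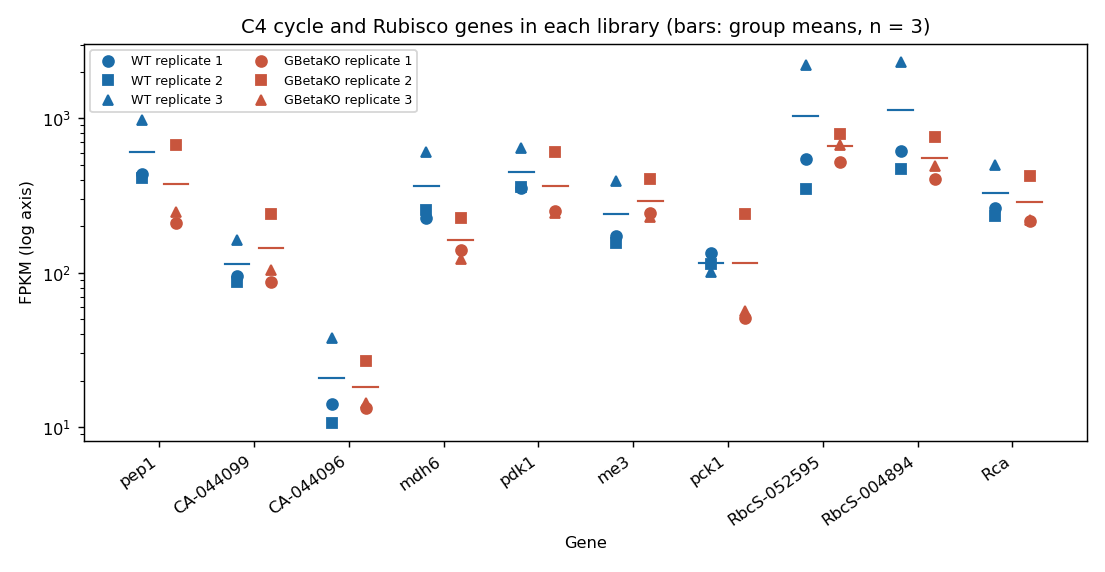
FPKM (log axis) of each gene in the 3 wild-type (blue) and 3 knockout (red) libraries, with bars for the group means; CA-044099 and CA-044096 are the carbonic anhydrases and RbcS-052595 and RbcS-004894 the Rubisco small subunits, each with the last digits of its identifier. The wild-type triangle (replicate 3) and the knockout square (replicate 2) lie on top for nearly every gene, with pck1 in wild-type replicate 3 (101 FPKM) as the exception.

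Carbonic anhydrase, which supplies bicarbonate to the carboxylase, was represented mainly by Zm00001d044099. It stood at 94.5, 87.0 and 162 FPKM in wild-type replicates 1, 2 and 3, and at 87.0, 241 and 104 FPKM in knockout replicates 1, 2 and 3. The groups overlapped, and the log2 fold change was 0.24 ± 0.45 (SE, limma adjusted p = 0.728). Zm00001d044096 was the weakest of the 10 genes, at 14.2, 10.6 and 37.8 FPKM in the wild type and 13.3, 26.6 and 14.4 FPKM in the knockout. Its log2 fold change was -0.06 ± 0.50 (limma adjusted p = 0.943), and its sign turned with scaling to the summed FPKM (0.19) or with quantile normalization (0.06). Without the 2 libraries that stood apart the estimates were 0.07 and 0.16 for these genes, with 95% intervals of -0.28 to 0.41 and -0.25 to 0.57. In each library Zm00001d044099 stood 4.28 to 9.06 times above Zm00001d044096. Reads shared by close copies of the carbonic anhydrase genes cannot be assigned with these tables, so the split between them is uncertain.

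The primary carboxylase gene pep1 stood at 438, 410 and 974 FPKM in the wild type and at 211, 672 and 246 FPKM in the knockout. Knockout replicates 1 and 3 lay below every wild-type library, and replicate 2 lay above wild-type replicates 1 and 2. Its log2 fold change was -0.77 ± 0.57 (limma adjusted p = 0.344), with a 95% interval from 0.227-fold to 1.51-fold. It was -0.37 without wild-type replicate 3 and -1.29 without knockout replicate 2, the extremes over the libraries left out in turn. Without wild-type replicate 3 and knockout replicate 2 it was -0.89 ± 0.14 (limma adjusted p = 0.00427), from 424 to 229 FPKM as means of 2 libraries.

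For mdh6, which turns oxaloacetate into the malate sent to the bundle sheath, the values were 227, 254 and 605 FPKM in the wild type and 140, 226 and 123 FPKM in the knockout. It was the only 1 of the 10 genes whose groups did not overlap (49.4% of all tested genes did not overlap, 24.5% being lower in the knockout). The gap between wild-type replicate 1 (227 FPKM) and knockout replicate 2 (226 FPKM) was small. Its log2 fold change, -1.05 ± 0.45, was the largest of the 10 in size, and the limma adjusted p of 0.128 was the smallest. Over all alternatives the value stayed below 0, and leaving out a library each moved it between -1.32 and -0.61.

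Among the enzymes that release CO2 in the bundle sheath, me3 stood at 174, 155 and 391 FPKM in the wild type and at 242, 404 and 230 FPKM in the knockout. In each genotype a single library lay far above the rest. Among the 4 others, the 2 knockout libraries (230 and 242 FPKM) lay above the 2 wild-type libraries (155 and 174 FPKM). How many of all tested genes were split in this way was not counted, and 51.4% of them passed the limma test in these 4 libraries. The log2 fold change was 0.36 ± 0.44 over 6 libraries (limma adjusted p = 0.566) and 0.52 ± 0.13 over those 4 (limma adjusted p = 0.0198). Leaving out a library each, it lay between 0.11 (without knockout replicate 2) and 0.78 (without wild-type replicate 3).

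The second decarboxylase, pck1, had a pattern of its own in the libraries that stood apart. It stood at 133, 114 and 101 FPKM in the wild type, so replicate 3 was its lowest wild-type library. In the knockout it stood at 51.2, 239 and 56.3 FPKM, so that replicate 2 held 4.39 times the level of the other 2 (on the log2(FPKM + 1) scale). The group means were nearly equal, at 116 ± 16.2 FPKM in the wild type and 116 ± 107 FPKM in the mutant (SD, n = 3 each). The log2 fold change was -0.38 ± 0.59 (limma adjusted p = 0.666). It was -1.09 without knockout replicate 2 (limma adjusted p = 0.0165) and -1.18 ± 0.13 in the 4 libraries (limma adjusted p = 0.00123).

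Pyruvate, phosphate dikinase (pdk1), which makes the acceptor of the cycle again, stood at 353, 357 and 638 FPKM in the wild type and at 249, 604 and 245 FPKM in the knockout. The order of its libraries was close to that of pep1, and the groups overlapped. Its log2 fold change was -0.37 ± 0.46 (limma adjusted p = 0.577), and it was -0.09 without wild-type replicate 3 and -0.80 without knockout replicate 2. In the 4 libraries it was -0.52 ± 0.12 (limma adjusted p = 0.0173), a call that was lost there with quantile normalization (-0.26, limma adjusted p = 0.167).

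The Rubisco small subunits, encoded in the nucleus and assembled with the large subunit of the chloroplast, had the highest mean levels of the 10 (849 and 842 FPKM over the 6 libraries) and were the most uneven among wild-type libraries. Zm00001d052595 stood at 545, 351 and 2225 FPKM in the wild type and at 520, 786 and 669 FPKM in the knockout. Zm00001d004894 stood at 610, 467 and 2316 FPKM in the wild type and at 406, 761 and 490 FPKM in the knockout. Between the lowest and highest wild-type library they spanned 6.35-fold and 4.95-fold, more than any other gene of the 10. Knockout replicate 2 was raised far less, at 1.33 and 1.71 times the other knockout libraries, where wild-type replicate 3 reached 5.08 and 4.33 times the other wild-type libraries (log2(FPKM + 1) scale). The log2 fold changes between genotypes were -0.21 ± 0.69 and -0.71 ± 0.65 (limma adjusted p = 0.844 and 0.45). That of Zm00001d004894 was -0.0021 without wild-type replicate 3 and -1.16 without wild-type replicate 2.

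Without the 2 libraries that stood apart, the small subunit genes had values of opposite sign, 0.43 ± 0.26 for Zm00001d052595 (limma adjusted p = 0.211) and -0.26 ± 0.19 for Zm00001d004894 (limma adjusted p = 0.304). In those 4 libraries Zm00001d052595 passed the test with scaling to the summed FPKM (0.62, limma adjusted p = 0.00158) and with quantile normalization (0.80, limma adjusted p = 0.00544). Over all 6 libraries its sign turned to 0.04 and 0.31 under these scalings. Small subunit genes are close copies of each other, so reads may have been divided between them in a way these tables do not show.

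Rubisco activase, which frees Rubisco from inhibiting sugar phosphates, was the steadiest of the 10, with 2.31-fold between its lowest and highest library. It stood at 261, 233 and 496 FPKM in the wild type and at 215, 424 and 220 FPKM in the knockout. The log2 fold change was -0.20 ± 0.42 (limma adjusted p = 0.759), and it turned to 0.06 with scaling to the summed FPKM and 0.13 with quantile normalization. In the 4 libraries it was -0.18, with a 95% interval of -0.51 to 0.14.

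**Figure D2:**
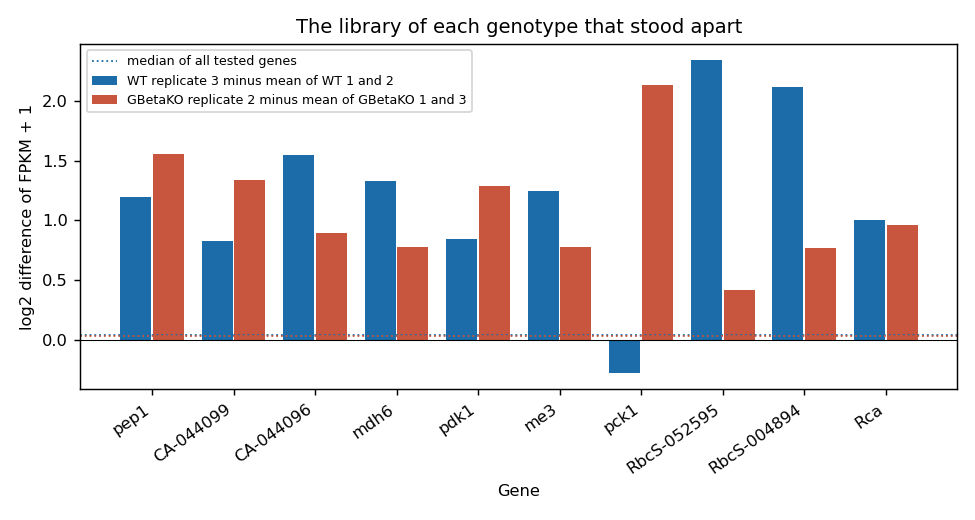
Difference in log2(FPKM + 1) between wild-type replicate 3 and the mean of wild-type replicates 1 and 2 (blue), and between knockout replicate 2 and the mean of knockout replicates 1 and 3 (red), with dotted lines for the median of all tested genes (0.04 and 0.03). The small subunits have the tallest blue bars (2.34 and 2.11), pck1 has the tallest red bar (2.13) and the only bar below 0 (-0.28).

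Setting aside wild-type replicate 3 and knockout replicate 2 gives a second view, with 2 libraries a genotype. The libraries set aside were picked because they stood apart in these data. Such a choice narrows the spread within the groups. The p-values and intervals of the 4 libraries, here and above, can thus be too small and are descriptions only. In this view pep1, mdh6, pdk1 and pck1 fell in the knockout and me3 rose, so 5 of 10 genes passed the limma test. The carbonic anhydrases, the small subunits and Rubisco activase did not pass. Of all tested genes 51.4% passed in this view (25.4% higher and 26.1% lower in the knockout), and 60% of those with a mean of at least 100 FPKM. A count of 5 of 10 thus lies at the background. The calls of pep1, mdh6, pck1 and me3 were also made with summed-FPKM scaling and with quantile normalization of these 4 libraries. These settings use the same chosen libraries and give no separate support.

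**Figure D3:**
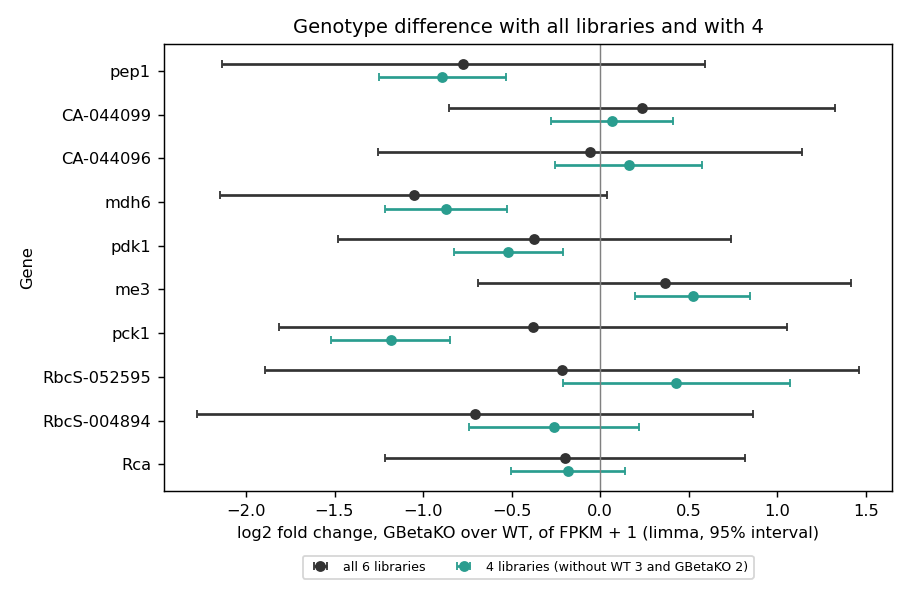
log2 fold change of the knockout over the wild type (FPKM + 1) with its 95% interval from limma, for all 6 libraries (black) and for the 4 libraries without wild-type replicate 3 and knockout replicate 2 (green). Every black interval crosses 0, that of mdh6 barely (-2.15 to 0.04), while the green intervals of pep1, mdh6, pdk1, pck1 and me3 do not.

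Ratios of genes within a library do not depend on the scaling between libraries. The level of pep1 over that of me3 was 2.52, 2.65 and 2.49 in wild-type replicates 1, 2 and 3, a narrow range although pep1 and me3 spanned 2.38-fold and 2.53-fold between these libraries. In the knockout it was 0.873, 1.66 and 1.07, below every wild-type library. The mean log2 ratio changed by -1.14 (2.20-fold lower in the knockout; exact permutation p = 0.1, two-sided, below which groups of 3 and 3 cannot go, and 0.267 adjusted over 8 ratios). Leaving out a library each, this difference lay between -1.40 and -0.94.

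The level of pep1 over that of pdk1, the carboxylase against the enzyme that makes its acceptor, was 1.24, 1.15 and 1.53 in the wild type and 0.847, 1.11 and 1.01 in the knockout. The groups did not overlap, by a narrow gap between 1.15 and 1.11, and the log2 difference was -0.40 (exact permutation p = 0.1, adjusted 0.267). The small subunit Zm00001d052595 over Zm00001d004894 was 0.894, 0.750 and 0.961 in the wild type and 1.28, 1.03 and 1.36 in the knockout. Thus, in FPKM, Zm00001d004894 was the higher of the pair in every wild-type library and Zm00001d052595 in every knockout library. Which gene is higher rests on the worked-back gene lengths (971 bases for Zm00001d052595 and 926 for Zm00001d004894). By reads, Zm00001d052595 was also the higher in wild-type replicate 3 (29167 against 28953). The log2 difference was 0.50 (exact permutation p = 0.1, adjusted 0.267) and does not depend on the lengths. The split of reads between these close copies is uncertain.

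The other 5 of the 8 ratios overlapped between genotypes, so 3 of 8 did not, against 52.8% of all pairs of genes with a mean of at least 10 FPKM. The level of pep1 over mdh6 was 1.61 to 1.93 in the wild type and 1.51 to 2.98 in the knockout (exact permutation p = 0.6). The ratio of the decarboxylases, me3 over pck1, was 1.31, 1.36 and 3.87 in the wild type and 4.72, 1.69 and 4.09 in the knockout (exact permutation p = 0.2). Here wild-type replicate 3 lay near the knockout and knockout replicate 2 near the wild type. Rubisco activase over the summed small subunits was 0.109 to 0.285 in the wild type and 0.190 to 0.274 in the knockout (exact permutation p = 0.8), and pep1 over the summed small subunits was 0.214 to 0.501 and 0.213 to 0.434 (exact permutation p = 0.6). For the carbonic anhydrases, Zm00001d044099 over Zm00001d044096, the exact permutation p was 0.5.

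Set against pep1 as the common denominator, 5 of the other 9 genes had ratios that did not overlap between genotypes, all higher in the knockout: pdk1, me3, both carbonic anhydrases and Rubisco activase. Among all tested genes 26.8% had such ratios to pep1, 21.4% higher and 5.36% lower in the knockout. The level of pep1 over Zm00001d044099 was 4.64, 4.71 and 6.02 in the wild type and 2.43, 2.79 and 2.37 in the knockout.

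Across all 45 pairs of the 10 genes, 19 (42.2%) had ratios that did not overlap, again against the 52.8% over all such pairs of genes. The NADP-malic enzyme me3 was the higher partner in the knockout in 6 of its 9 pairs and the lower in 0. The reverse held for mdh6 and for pep1, each the lower partner in 5 pairs and the higher in 0. Counts were also one-sided for Zm00001d044099 (5 higher, 0 lower), Zm00001d004894 (0 higher, 4 lower) and Zm00001d052595 (1 higher, 0 lower). All pairs of a gene share its values. How often other genes have such one-sided counts was not counted, so they are not read as traits of these genes. The pair with the largest shift was me3 over mdh6, which was 0.766, 0.610 and 0.647 in the wild type and 1.73, 1.79 and 1.88 in the knockout. It was singled out after its values were seen and gets no test. Within the knockout this ratio spanned 1.73 to 1.88 while me3 and mdh6 spanned 1.76-fold and 1.84-fold. None of the 9 pairs of pck1 was free of overlap.

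**Figure D4:**
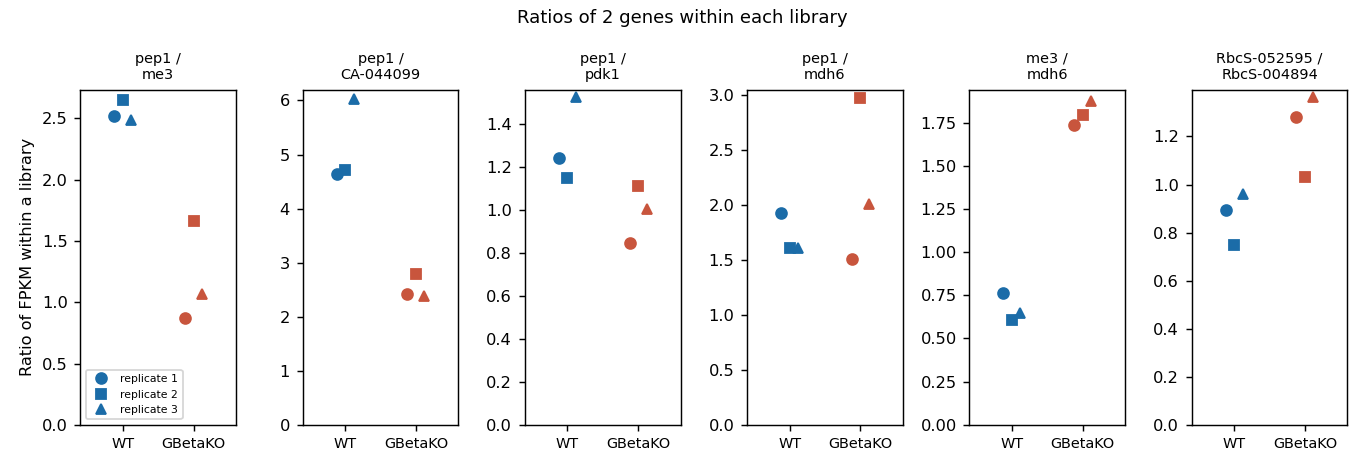
Ratio of the FPKM of 2 genes within each library, wild type (blue) and knockout (red), with circles for replicate 1, squares for replicate 2 and triangles for replicate 3; each axis starts at 0. The groups are apart for pep1 over me3, pep1 over the carbonic anhydrase Zm00001d044099, pep1 over pdk1, me3 over mdh6 and the small subunits, and overlap for pep1 over mdh6.

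Over the 6 libraries most of the genes went up and down together. The Pearson correlation of log2(FPKM + 1) had a median of 0.80 over the 45 pairs, from 0.10 (pck1 with Zm00001d052595) to 0.97 (pep1 with pdk1). It was 0.90 at the median for deviations from the group means. The genes share libraries and their scaling, and each had its highest value in wild-type replicate 3 or knockout replicate 2. The median correlation over pairs of other genes was not computed. The correlations are descriptions of 6 libraries and are not read as a trait of these genes. The genes least like the others were pck1, with a median of 0.43 to the other 9, and me3 with 0.68. Rubisco activase had the highest median, 0.87. Outside the 10, among 1013 genes with a mean of at least 100 FPKM, the identifier whose pattern was most like that of pep1 was Zm00001d027488 (r = 0.995). For Zm00001d052595 it was Zm00001d005996 (r = 0.986).

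The summed level of the 10 genes was 2850, 2439 and 7945 FPKM in wild-type replicates 1, 2 and 3 and 2135, 4384 and 2398 FPKM in the knockout. As a share of all FPKM in the library this was 0.430%, 0.408% and 0.926% in the wild type and 0.402%, 0.674% and 0.417% in the knockout. Apart from wild-type replicate 3 and knockout replicate 2, the share was thus 0.402% to 0.430% in both genotypes. The summed mesophyll genes over the bundle sheath genes other than the small subunits (me3, pck1 and Rubisco activase) came to 1.98, 2.23 and 2.44 in the wild type and 1.38, 1.66 and 1.45 in the knockout. These values did not overlap. Among ratios of 2 single genes 52.8% did not, and no such share was computed for ratios of sums. Leaving out the small subunits was not planned. With the small subunits included, the ratios were 0.654, 0.847 and 0.437 against 0.489, 0.676 and 0.440, and the groups overlapped. As sums over genes chosen with earlier results known, these ratios get no test.

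By rank among all 44146 identifiers, the small subunit Zm00001d004894 was at places 31 to 107 over the 6 libraries, Zm00001d052595 at 34 to 172, pep1 at 87 to 304 and pdk1 at 100 to 286. Zm00001d044096 was at places 3706 to 10300. The order was not the same in every library. In wild-type replicate 2, pep1 (137) and pdk1 (167) ranked above Zm00001d052595 (172), and in knockout replicate 1, pep1 (304) ranked below pdk1 (224), me3 (237) and Rubisco activase (295). The reads behind the values numbered from 907 (Zm00001d044096 in wild-type replicate 2) to 48447 (pdk1 in knockout replicate 2). The counting error (SD) was at most 3.32% of a value. It covers counting only, since read pairs are not independent molecules.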

How the data were processed

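The authors deposited a table of FPKM values for each library, with no header. Per the submitters' processing notes the tools were TopHat2, Cufflinks and Cuffdiff, on B73 RefGen_v4. For versions, annotation, filters and strandedness nothing is given in the sources used here, and how reads shared by copies of a gene were treated is not known. The unit was taken from these tools and the values. FPKM values are divided by gene length and a library total. That total was 0.792 (wild-type replicate 3) to 1.12 (knockout replicate 1) times the worked-back reads of the library. The authors' scaling was thus not to the total of these reads.

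Values of 31944 of 31946 identifiers above 0 were whole multiples of a read (within 2e-05 of a read plus a rounding allowance) and were worked back to reads and lengths. The titles gave the groups and replicate numbers. The test took the 23232 genes that reached 1 FPKM in 3 libraries or more (20914 were left out). It used limma 3.58.1 (R 4.3.3) on log2(FPKM + 1), with genotype as the only term, robust empirical Bayes with a trend, two-sided p-values adjusted by Benjamini-Hochberg over all tested genes, and a threshold of 0.05. Folds on this scale understate those of weak genes. All 10 genes are named. The genes outside the list are the most correlated identifier to pep1 and to Zm00001d052595. Genes and tests were chosen with earlier results of these data known. The 45 pairs, the ratios to pep1 and their backgrounds were added after seeing the data. The ratios of summed mesophyll genes over summed bundle sheath genes were not planned either. A wider list of photosynthesis genes was not built, because 0 of 44146 identifiers matched the reference table. Ratios were compared by exact permutation tests in Python 3.11.15 with scipy 1.17.1. The reading of whole reads and the limma fit were tested on simulated data. The limma p-values set the difference between genotypes against the spread between these libraries, with variances moderated over all tested genes. The permutation p-values set it against all ways of dividing the libraries into groups. Same-numbered libraries deviated from their group means with correlations of 0.15, -0.37 and -0.20. The 2 libraries that stood apart carry different replicate numbers, so these correlations cannot decide whether the numbers pair libraries.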

Additional observations from a re-analysis of the deposited data

How the results depend on the processing

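Of the fold changes over 21 alternatives, those of pep1, pdk1, me3, mdh6 and Zm00001d004894 kept their direction in 21 of 21, those of pck1 and Zm00001d044099 in 20, Rubisco activase in 15, Zm00001d052595 in 13 and Zm00001d044096 in 11. For Zm00001d004894 the direction was kept in name only, at -0.0021 without wild-type replicate 3 and -0.0097 in the 4 libraries with quantile normalization, and leaving out a library each gave -1.16 to -0.0021. The number of the 10 genes called was 0 higher and 0 lower, and changed to 3 lower (pep1, mdh6 and pck1) with library weights, where 64.5% of all tested genes were called, to 1 higher and 4 lower in the 4 libraries (51.4%), to 2 higher and 4 lower there with scaling to summed FPKM (54.1%), and to 2 higher and 3 lower there with quantile normalization (52.7%). Leaving out a library each gave 0 to 0 higher and 0 to 1 lower (pck1 without knockout replicate 2, where 29.6% of all tested genes were called). With a replicate block 0 of 10 were called (smallest limma adjusted p = 0.218), against 19.7% of all tested genes. The library weights were 0.161 for wild-type replicate 3 and 0.265 for knockout replicate 2. Wild-type replicates 1 and 2 had 4.27 and 0.987, and knockout replicates 1 and 3 had 1.08 and 5.20. This setting thus leans on the same 4 libraries, mostly on 1 in each genotype, and gives no separate support. The cause of the changed calls was not tested for the weights or the scalings.

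Values whose sign turned, in the order Zm00001d044096, Zm00001d052595 and Rubisco activase, were 0.055, 0.31 and 0.13 (quantile normalization), 0.19, 0.044 and 0.060 (summed FPKM), and 0.15, 0.001 and 0.017 (total of worked-back reads, added after seeing the data). In the 4 libraries they were 0.34, 0.62 and 0.0034 with scaling to summed FPKM and 0.23, 0.80 and 0.078 with quantile normalization, both added after seeing the data. For Zm00001d044096 and Zm00001d052595 they were 0.066 and 0.30 with library weights and 0.16 and 0.43 in the 4 libraries. Leaving out a library each gave -0.41 to 0.46 for Zm00001d044096, -0.76 to 0.57 for Zm00001d052595, -0.52 to 0.14 for Rubisco activase, -1.09 to 0.011 for pck1 and -0.21 to 0.52 for Zm00001d044099. In the 4 libraries the log2 differences in ratio turned to -0.018 for pep1 over mdh6, -0.11 for Zm00001d044099 over Zm00001d044096 and -0.28 for Rubisco activase over the small subunits (-0.15 to 0.55 leaving out a library each). The log2 differences of me3 over pck1 (0.47 to 1.26 leaving out a library each) and pep1 over the summed small subunits (-0.66 to -0.047) kept their direction. So did those of pep1 over me3, pep1 over pdk1 and the small subunit pair. For these 3 ratios that was fixed in advance, because groups without overlap keep their order when libraries are left out. With 3 libraries a genotype no permutation test can pass 0.05. The fewest reads behind a value were 907.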
